A study of Mus musculus with 4 samples.

Results

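The lysosome is the acidic organelle in which a cell breaks down proteins, glycans and lipids. Soluble hydrolases work in its lumen, cathepsins on proteins and glycosidases on sugar chains, while heavily glycosylated proteins of the LAMP and LAPTM families, tetraspanins and ion channels make up its membrane. Many of these genes share the CACGTG core of the CLEAR element in their promoters, which is bound by the transcription factor TFEB and its relatives. In the brain, microglia and the macrophages of the borders take up debris and carry large lysosomal systems, and astrocytes also degrade material taken up from their surroundings.

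Described here are 34 mouse genes of lysosomal enzymes and membrane proteins, chosen by name: 9 cathepsins, 9 glycosidases, 4 lipid and other hydrolases, the precursors of the saposins and granulins, 8 membrane proteins, the calcium channel gene Mcoln1 and the gene of TFEB. All 34 were found among the 19040 genes that the feature lists of both brain regions hold. Their levels were compared between cells that the authors labelled MAC, MG and AC, between genotypes and between regions.

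Single-cell RNA was counted with the 10x Genomics 3' v3 kit in tissue dissociated to isolate glia and vessels of the adult brain. There were 4 libraries, each without a replicate: transgenic midbrain, wildtype midbrain, transgenic frontal cortex and wildtype frontal cortex. The transgenic mice are studied as a model of synucleinopathy, the wildtype mice were littermates, and all were labelled C57BL/6 and aged 6 to 9 months. The design text gives 3 mice per group, the cells carry no mouse of origin, and the mouse number label reads 3 for frontal cortex and 0 for midbrain, so each group counts as 1 sample. Libraries held 3775 to 7635 cells and 30712684 to 56588233 UMIs (unique molecular identifiers, each standing for a captured transcript), with a median of 6900 to 8193 UMIs per cell, and any pair of libraries shared 3 to 15 cell barcodes.

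Label MAC held 70, 157, 85 and 112 cells in transgenic midbrain, wildtype midbrain, transgenic frontal cortex and wildtype frontal cortex, and this order of libraries is kept wherever 4 values follow a label. MG held 806, 1158, 1445 and 1912 cells, and AC 1512, 2644, 868 and 1067 cells. In both regions, 9 of 9 border macrophage markers were highest in MAC, 11 of 11 microglia markers in MG, and 11 of 14 astrocyte markers in AC. The summed microglia markers were at 8335 to 10409 CPM (counts per 1000000 UMIs of the label's cells) in MAC, 21887 to 26217 CPM in MG and 134 to 665 CPM in AC. Border macrophage markers summed to 6243 to 10509 CPM in MAC, 9.10 to 14.3 CPM in MG and 5.44 to 7.65 CPM in AC. Astrocyte markers summed to 205 to 1537 CPM in MAC, 399 to 1188 CPM in MG and 27888 to 33571 CPM in AC. The median share of mitochondrial UMIs per cell was 3.23% to 3.89% in MAC, 2.02% to 2.64% in MG and 5.27% to 9.68% in AC.

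Promoters show what the sequence of the genes shares and where it differs. RefSeq promoter windows (GRCm38.p6, 250 bases before to 50 after the start) were at hand for 30 of the 34 genes. CACGTG, which reads the same on both strands, was present in 10 of them (33.3%), against 8.09% of the 27025 genes with a window: Lamp1, Ctsa, Ctsd, Ctsf, Ctsl, Gla, Glb1, Gaa, Naglu and Mcoln1. The full palindrome of the CLEAR element, which contains this core, was in 0 of 30 and in 0.370% of all genes. GAGGAAGT, a form of the site of the myeloid factor PU.1 searched on both strands, was in 4 of 30 (13.3%: Ctsc, Ctss, Gla and Gusb) and in 3.69% of all genes. Shown are the cathepsin gene that led in MG (Ctsd), the LAMP gene with 4 copies of the core (Lamp1), the channel gene (Mcoln1) and the cathepsin gene with the largest MG over AC ratio (Ctss), each read on the strand of its gene with CACGTG, or GAGGAAGT as its reverse complement ACTTCCTC, in capitals.
Ctsd, chr7:142387778-142388077, minus strand: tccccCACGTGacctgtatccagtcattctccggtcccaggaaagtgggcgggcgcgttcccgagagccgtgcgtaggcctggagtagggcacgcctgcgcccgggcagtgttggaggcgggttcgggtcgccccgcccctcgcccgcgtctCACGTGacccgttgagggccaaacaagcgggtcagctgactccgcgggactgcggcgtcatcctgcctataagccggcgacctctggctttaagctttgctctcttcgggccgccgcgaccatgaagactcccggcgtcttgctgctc
Lamp1, chr8:13158911-13159210, plus strand: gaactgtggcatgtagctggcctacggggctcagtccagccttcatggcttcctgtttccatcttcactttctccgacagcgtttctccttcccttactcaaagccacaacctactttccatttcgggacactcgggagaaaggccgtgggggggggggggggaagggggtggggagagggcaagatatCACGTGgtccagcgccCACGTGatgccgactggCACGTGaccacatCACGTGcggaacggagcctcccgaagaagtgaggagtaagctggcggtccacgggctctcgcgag
Mcoln1, chr8:3500269-3500568, plus strand: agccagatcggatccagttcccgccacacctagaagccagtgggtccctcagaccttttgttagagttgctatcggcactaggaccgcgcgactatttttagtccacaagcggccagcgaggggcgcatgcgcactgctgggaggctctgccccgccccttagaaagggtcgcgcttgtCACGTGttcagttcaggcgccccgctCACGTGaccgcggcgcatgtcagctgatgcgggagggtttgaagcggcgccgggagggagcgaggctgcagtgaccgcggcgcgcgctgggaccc
Ctss, chr3:95526536-95526835, plus strand: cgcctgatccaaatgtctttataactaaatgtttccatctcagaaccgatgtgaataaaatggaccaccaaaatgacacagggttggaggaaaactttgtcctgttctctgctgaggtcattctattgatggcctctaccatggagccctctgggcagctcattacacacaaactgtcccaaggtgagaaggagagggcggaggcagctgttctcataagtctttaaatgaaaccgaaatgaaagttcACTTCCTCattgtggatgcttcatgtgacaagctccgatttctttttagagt
In Ctsd the copies of the core begin 245 and 98 bases upstream of the start, in Lamp1 61, 45, 28 and 15 bases, and in Mcoln1 71 and 45 bases. The single match in Ctss begins 2 bases upstream of the start. These are matches of letters in these windows and say nothing of binding.

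The 34 genes together took up the largest part of the transcripts in MG, less in MAC and far less in AC. Their sum was 17866, 17738, 20486 and 20408 CPM in MAC, 26230, 24836, 27660 and 26403 CPM in MG, and 5587, 5662, 6111 and 5644 CPM in AC. The ranges of the 3 labels did not overlap. The mean log2 ratio of the sums was -0.46 for MAC over MG, 2.19 for MG over AC and 1.73 for MAC over AC. The gap between MG (26282 CPM on average) and MAC (19125 CPM) lay mainly in Ctsd and Ctss. On average, Ctsd was at 5799 CPM in MG and 1570 CPM in MAC, and Ctss at 5001 CPM in MG and 1747 CPM in MAC. Per cell, the median lysosomal share of UMIs was 1.68% to 2.04% in MAC, 2.51% to 2.72% in MG and 0.518% to 0.583% in AC. The labels were made by the authors from the same counts and each group is 1 library, so differences between labels are given as a description with the spread over libraries, and no p-value is given anywhere.

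**Figure D1:**
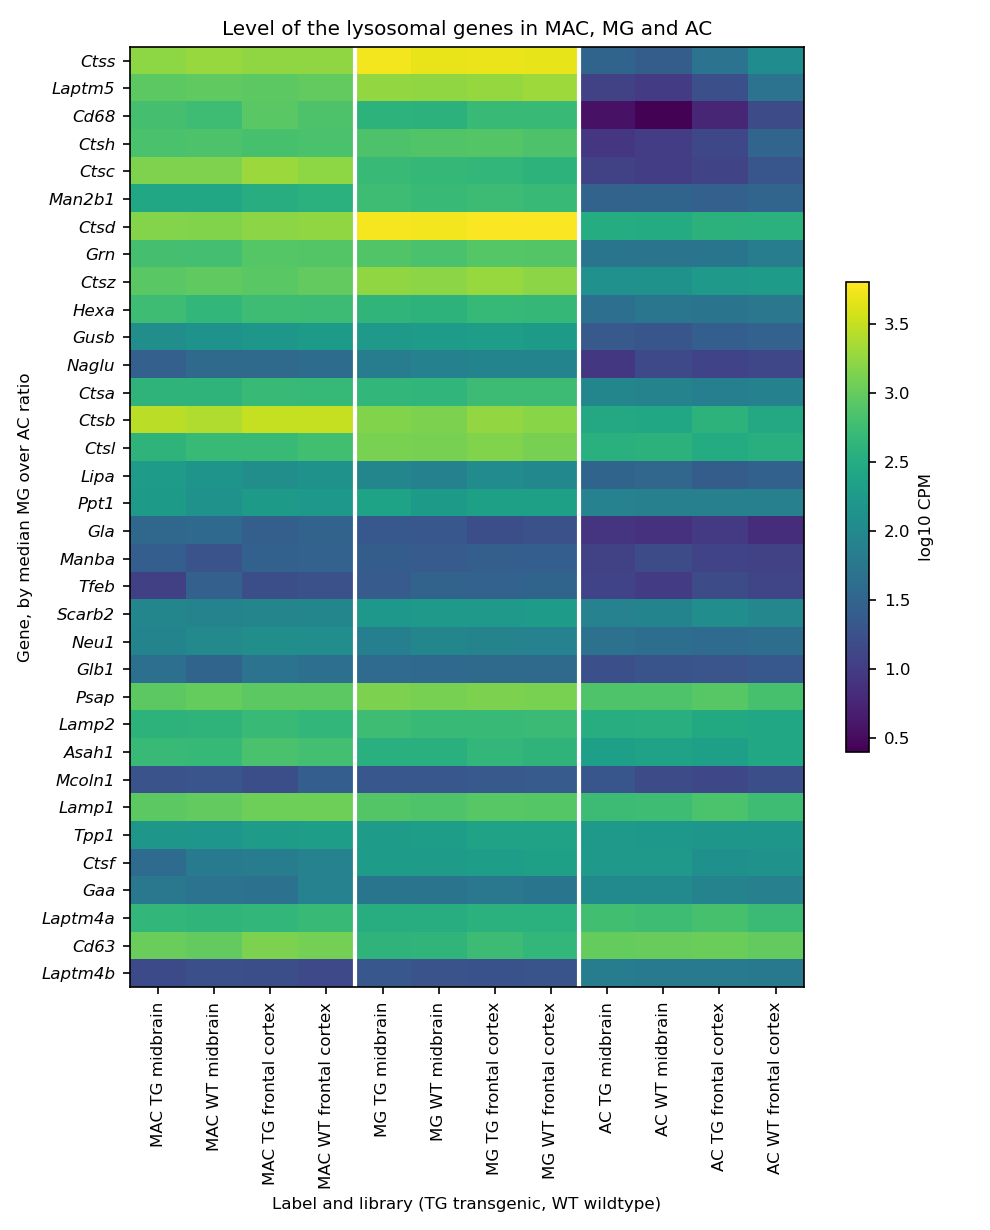
Level of each gene (rows, ordered by the median MG over AC ratio) as log10 CPM in MAC, MG and AC of each library (columns; TG transgenic, WT wildtype). The top rows (Ctss, Laptm5, Cd68, Ctsh, Ctsc) are bright in MAC and MG and dark in AC, while the lowest rows (Laptm4a, Cd63, Laptm4b) are as bright or brighter in AC than in MG.

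What the lysosomal transcripts consisted of differed between the labels. Cathepsins made up 54.4 ± 0.35% of the sum in MAC, 65.6 ± 0.70% in MG and 25.8 ± 1.31% in AC (mean ± SD, n = 4 libraries). The 8 membrane proteins made up 24.8 ± 0.52% in MAC, 17.4 ± 0.62% in MG and 46.4 ± 1.23% in AC. The saposin and granulin precursors were 8.41 ± 0.42% of the sum in MAC, 7.87 ± 0.11% in MG and 13.6 ± 0.74% in AC, and the 9 glycosidases stayed between 4.60% and 7.02% in every label and library. It took 6 genes to reach 50% of the sum in MAC, 4 in MG and 4 or 5 in AC. The chemistry counts transcript ends, so shares and levels were not divided by gene length.

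Each label was led by a different gene. In MAC the leading gene was Ctsb, a cysteine protease, with 15.1 ± 0.87% of the sum, followed by Ctss (9.19 ± 1.0%), Ctsc (8.32 ± 0.71%) and Ctsd (8.21 ± 0.25%). In MG it was Ctsd, the main aspartic protease of the lysosome, with 22.1 ± 0.51%, followed by Ctss (19.0 ± 1.23%) and Laptm5 (6.95 ± 0.39%). In AC it was Cd63, a tetraspanin of late endosomes and lysosomes, with 17.7 ± 0.52%, followed by Psap (12.6 ± 0.89%), Lamp1 (10.1 ± 0.77%) and Laptm4a (9.98 ± 0.62%). The part of the make-up that a pair of libraries had in common (the sum over genes of the smaller share) was 92.8% to 96.6% within MAC, 95.5% to 97.9% within MG and 92.6% to 97.6% within AC. It was 65.0% to 71.9% between MAC and MG, 48.2% to 55.1% between MAC and AC, and 41.9% to 48.1% between MG and AC. Make-up thus varied less between genotypes and regions within a label than between labels in each of these pairs.

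**Figure D2:**
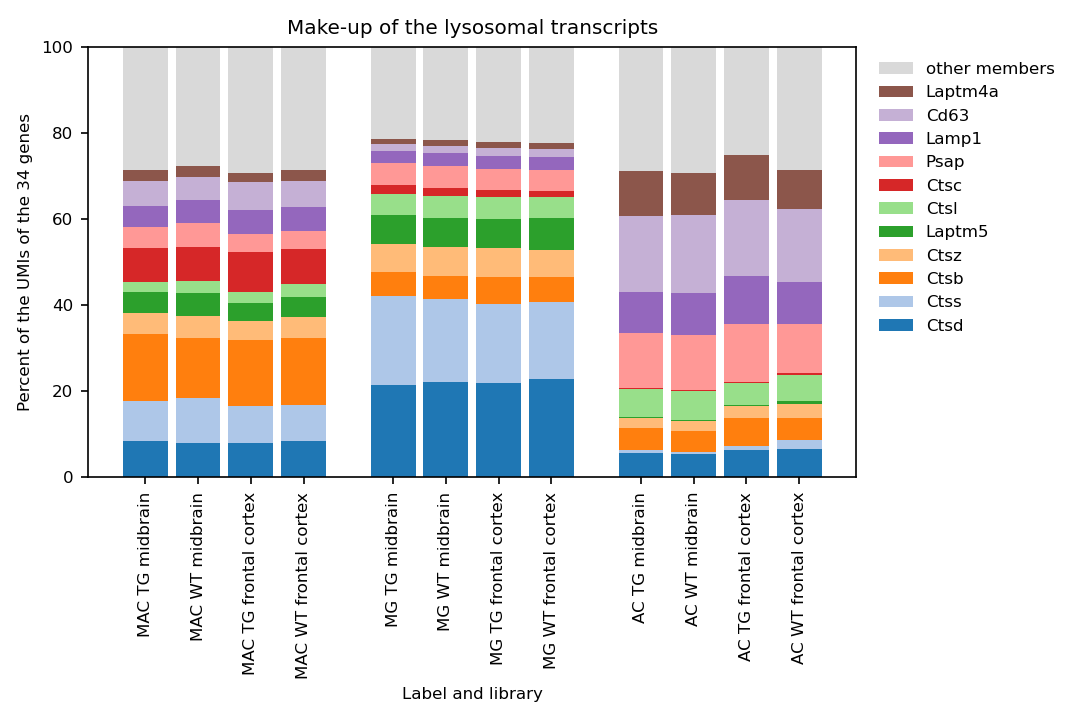
Share of the summed UMIs of the 34 genes (percent, from 0 to 100) taken by the leading genes in MAC, MG and AC of each library; grey holds the other genes. Ctsd and Ctss fill the lower part of the MG bars, Ctsb and Ctsc are widest in MAC, and Cd63, Psap, Lamp1 and Laptm4a fill the upper part of the AC bars.

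Between labels, a gene was counted as higher or lower when it was past 2-fold in the same direction in all 4 libraries, among genes at 20 CPM or more in the mean of either label. For MG over AC, 33 of the 34 genes reached that level (Gla did not). Of these, 17 were higher, against 20.2% of all 8298 genes counted in the same way, and 1 was lower, against 21.9%. Their median log2 ratio was 1.51, against -0.03 over all genes. For MAC over AC, 33 genes reached the level (Tfeb did not). Again 17 were higher, against 16.7% of 8084 genes, and 1 was lower, against 23.1%, with a median of 1.37 against -0.37. For MAC over MG, 33 genes reached it (Laptm4b did not), 2 were higher, against 5.14% of 6881 genes, and 5 were lower, against 8.11%. The median log2 ratio of the genes for MAC over MG was -0.14, which lies 0.16 above the median of all genes (-0.30), although their sum was lower in MAC.

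Scaling by edgeR's TMM factors, in place of the total, moved every MG over AC ratio by 0.12, every MAC over AC ratio by 0.13 and every MAC over MG ratio by 0.16 on average on the log2 scale. Under it the mean log2 ratio of the sum for MAC over MG became -0.30, and 3 genes in place of 5 were counted as lower in MAC.

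**Figure D3:**
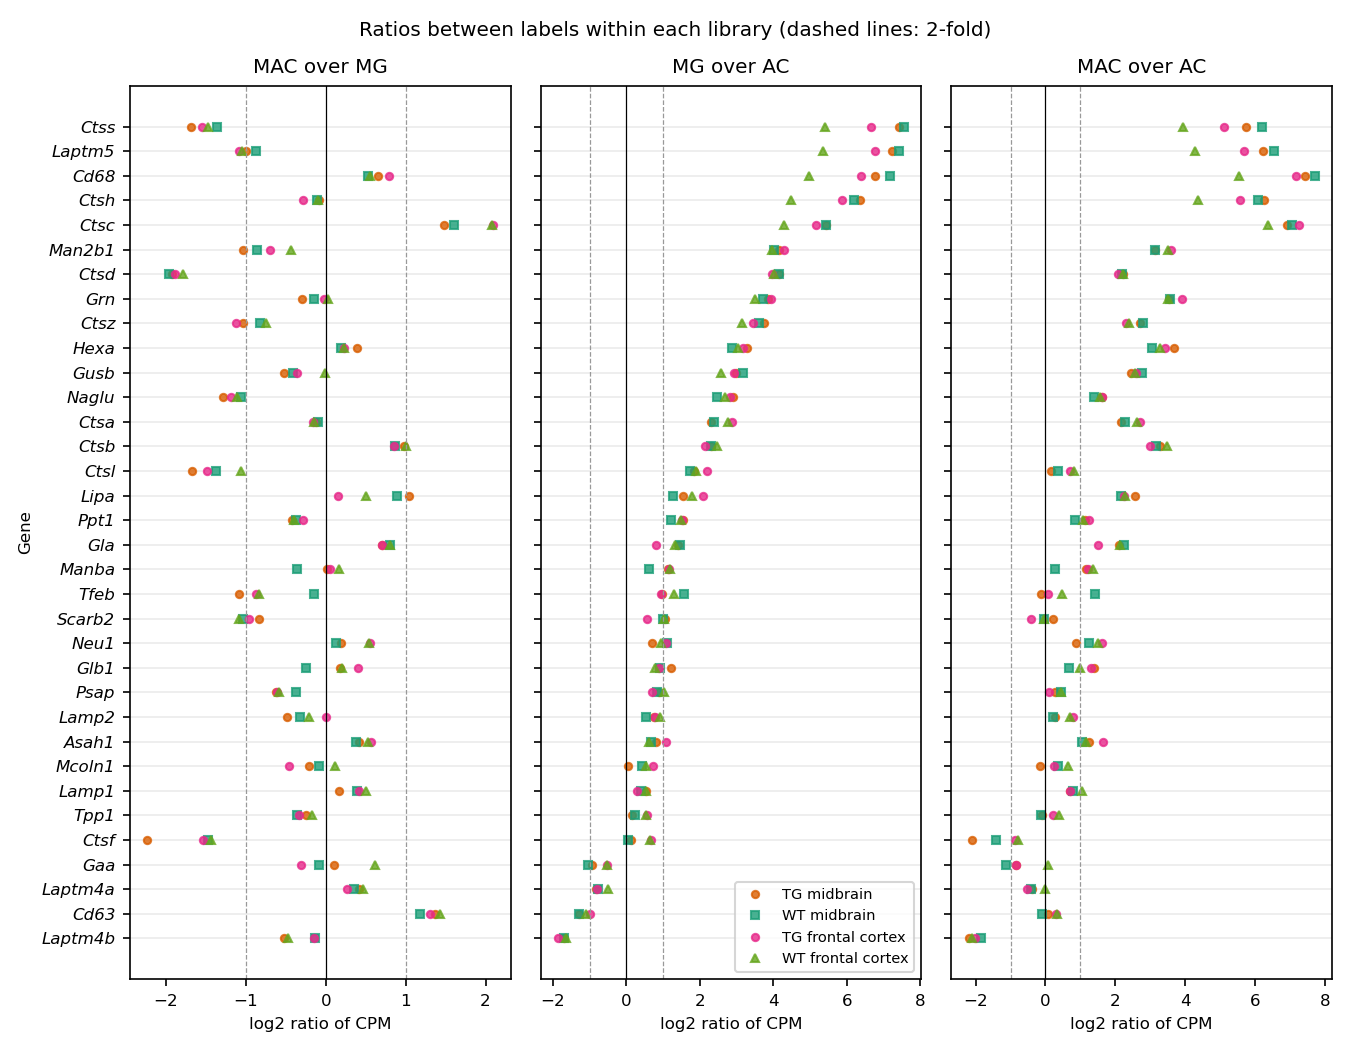
log2 ratio of CPM between labels within each library (points) for MAC over MG, MG over AC and MAC over AC, genes ordered by the median MG over AC ratio; dashed lines mark 2-fold. The MG over AC ratios run from 7.56 (Ctss, wildtype midbrain) to -1.86 (Laptm4b, transgenic frontal cortex), and most MAC over MG points lie between the dashed lines.

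Among cathepsins, 8 of 9 were higher in MG than in AC and 7 of 9 were higher in MAC than in AC. Ctsd (chr7:142375911-142388038, minus strand, GRCm38) was at 1487, 1418, 1641 and 1735 CPM in MAC, 5648, 5506, 6042 and 6000 CPM in MG, and 318, 311, 388 and 372 CPM in AC. Ctss (chr3:95526786-95556403, plus strand), a protease that stays active at neutral pH and processes antigen, was at 1685, 1865, 1741 and 1700 CPM in MAC, 5421, 4792, 5071 and 4720 CPM in MG, and 31.7, 25.4, 49.99 and 111 CPM in AC. Both were highest in MG, with a median log2 ratio for MAC over MG of -1.90 (Ctsd) and -1.51 (Ctss), and a spread over libraries far below these sizes. A second protein-coding gene, Gm49369, overlaps Ctsd on the same strand in the GENCODE annotation, so the counts of Ctsd are uncertain to that degree.

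Ctsb and Ctsc went the other way between the myeloid labels. Ctsb (chr14:63122462-63145923, plus strand) was at 2791, 2454, 3173 and 3187 CPM in MAC, 1419, 1342, 1753 and 1583 CPM in MG, and 286, 273, 396 and 287 CPM in AC. Its median log2 ratio for MAC over MG was 0.92. The ratio was past 2-fold in wildtype frontal cortex alone and so was not counted. Ctsc (chr7:88278085-88310888, plus strand), the dipeptidyl peptidase that activates granule serine proteases, was at 1406, 1391, 1915 and 1678 CPM in MAC, 504, 458, 447 and 396 CPM in MG, and 11.6, 10.5, 12.5 and 20.2 CPM in AC. For Ctsc the median log2 ratio for MAC over MG was 1.84, with a lowest value of 1.48.

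Ctsl, a cysteine endopeptidase, was at 407, 488, 512 and 596 CPM in MAC, 1300, 1265, 1435 and 1248 CPM in MG, and 363, 380, 312 and 337 CPM in AC. It was lower in MAC than in MG (median log2 ratio -1.43) and differed between MAC and AC by less than 2-fold. Ctsz, a carboxypeptidase, was at 850, 926, 862 and 977 CPM in MAC, 1735, 1634, 1876 and 1642 CPM in MG, and 130.5, 135, 174 and 185 CPM in AC. Ctsh, an aminopeptidase, was close to level between MAC (665, 699, 648 and 666 CPM) and MG (706, 754, 787 and 715 CPM), and was at 8.68, 10.3, 13.6 and 32.3 CPM in AC. The serine carboxypeptidase Ctsa, which protects other hydrolases from breakdown, had median log2 ratios of 2.58 for MG over AC and -0.14 for MAC over MG. Ctsf, a cysteine protease, was the 1 cathepsin gene not counted as higher in MG than in AC: it was at 38.7, 65.7, 70.0 and 80.8 CPM in MAC, 182, 183, 203 and 218 CPM in MG, and 166, 176, 128 and 140 CPM in AC. It was lower in MAC than in MG in all 4 libraries (median log2 ratio -1.51), and differed between MG and AC by 0.05 to 0.66.

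Glycosidases were at lower levels, from 6.94 to 553 CPM over the 3 labels. Higher in MG than in AC were 4 of the 8 that reached 20 CPM: Man2b1, the acid alpha-mannosidase (median log2 ratio 4.09), Hexa, a subunit of beta-hexosaminidase (3.12), Gusb, the beta-glucuronidase (2.96), and Naglu, which acts on heparan sulfate (2.75). The sialidase Neu1 (1.015), the beta-mannosidase Manba (1.14) and the beta-galactosidase Glb1 (0.91) were above 0 in the median but not 2-fold in every library. In MAC over AC, 5 of 9 were higher: Hexa (3.34), Man2b1 (3.34), Gusb (2.58), Gla, the alpha-galactosidase (2.12), and Naglu (1.60). Naglu was the 1 glycosidase that was lower in MAC than in MG (-1.15). Gaa, the acid alpha-glucosidase that breaks down glycogen, was at 57.1, 48.8, 46.2 and 80.8 CPM in MAC, 53.4, 51.6, 57.2 and 52.9 CPM in MG, and 103, 106, 82.9 and 76.6 CPM in AC. Its MG values all lay under its AC values, at a median log2 ratio of -0.74. The protein-coding gene Tmppe overlaps Glb1 on its strand in the annotation, so the counts of Glb1 are uncertain to that degree.

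Of the lipid and other hydrolases, Lipa, the acid lipase for cholesteryl esters, had median log2 ratios of 1.66 for MG over AC and 2.27 for MAC over AC. Ppt1, the palmitoyl-protein thioesterase, was higher in MG than in AC (1.51), and Asah1, the acid ceramidase, was higher in MAC than in AC (1.199). Tpp1, the tripeptidyl peptidase, lay within 0.14 to 0.56 of AC in MG and within -0.11 to 0.38 in MAC. Psap (chr10:60277627-60302597, plus strand), whose product is cut into the saposins that present lipids to their hydrolases, was at 874, 991, 883 and 868 CPM in MAC, 1342, 1278, 1342 and 1302 CPM in MG, and 721, 721, 821 and 641 CPM in AC. Grn, which encodes progranulin, had median log2 ratios of 3.79 for MG over AC and 3.56 for MAC over AC, and -0.08 for MAC over MG.

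The membrane proteins differed in pattern: some were myeloid, some were shared, and Cd63, Laptm4a and Laptm4b were higher in AC than in MG in every library. Laptm5 (chr4:130913125-130936141, plus strand), a lysosomal protein of immune cells, was at 887, 936, 871 and 960 CPM in MAC, 1763, 1709, 1846 and 1988 CPM in MG, and 11.8, 9.96, 17.04 and 49.1 CPM in AC. Cd68 (chr11:69664213-69666153, minus strand), the LAMP-related marker of macrophages, was at 632, 547, 849 and 713 CPM in MAC, 400.4, 379, 489 and 484 CPM in MG, and 3.65, 2.61, 5.87 and 15.4 CPM in AC. These were the 2 membrane protein genes counted as higher in MG and in MAC than in AC.

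Cd63 (chr10:128900989-128912822, plus strand) was at 1043, 962, 1351 and 1213 CPM in MAC, 404, 426, 545 and 450.5 CPM in MG, and 985, 1032, 1087 and 958 CPM in AC. MAC thus resembled AC rather than MG in its level of this gene, with median log2 ratios of 1.34 for MAC over MG, 0.20 for MAC over AC and -1.18 for MG over AC. The last was past 2-fold in 3 of 4 libraries and so was not counted. Lamp1 (chr8:13159161-13175338, plus strand), a major glycoprotein of the lysosomal membrane, was at 864, 960, 1106 and 1130 CPM in MAC, 769, 730, 830 and 800 CPM in MG, and 531, 556, 685 and 551 CPM in AC. Its relative Lamp2 was at 396, 403, 503 and 450 CPM in MAC, 556, 502, 503 and 521 CPM in MG, and 330, 344, 293 and 277 CPM in AC. For both LAMP genes the median ratio of MG over AC was under 2-fold (log2 0.46 and 0.77).

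Laptm4a (chr12:8921664-8938742, plus strand), a small protein of late endosomes and lysosomes, was at 444, 421, 447 and 509.5 CPM in MAC, 332, 328, 371 and 369 CPM in MG, and 585, 555, 640 and 518 CPM in AC. Laptm4b (chr15:34238028-34284302, plus strand), its close relative, was at 14.7, 16.9, 16.4 and 14.1 CPM in MAC, 21.1, 18.5, 18.1 and 19.5 CPM in MG, and 67.9, 60.5, 65.7 and 60.1 CPM in AC. It was the 1 gene lower in MG than in AC and the 1 gene lower in MAC than in AC, at median log2 ratios of -1.70 and -2.05. Scarb2, a membrane protein that sorts a hydrolase to the lysosome, had median log2 ratios of 1.02 for MG over AC and -0.998 for MAC over MG, neither 2-fold in every library. Mcoln1, the lysosomal calcium channel, was at 13.8 to 25.8 CPM over the 12 groups of cells, and Tfeb at 10.2 to 31.3 CPM.

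Read against the promoters, the CACGTG core was in 4 of 15 genes counted as higher in MG than in AC and in 6 of the 15 others with a window. As percent of the MG level, AC held Gaa at 145% to 205%, Lamp1 at 68.9% to 82.5% and Ctsf at 63.1% to 96.4%. The rest of the 6 were Mcoln1 (60.9% to 96.6%), Glb1 (42.9% to 58.3%) and Gla (36.3% to 57.4%). GAGGAAGT was in 3 of 15 and 1 of 15, the last being Gla, which did not reach 20 CPM for MG over AC but is kept among the others. For MAC over AC the counts were 4 of 14 and 6 of 16 for CACGTG, and 4 of 14 and 0 of 16 for GAGGAAGT. Tfeb, which did not reach 20 CPM for MAC over AC, is kept among these 16. These numbers describe the windows, and no test was made of them.

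Low counts of myeloid genes in AC went with counts of microglia markers. Set against MG of the same library, the summed microglia markers were at 0.643%, 0.612%, 1.28% and 2.56% of the MG level in AC. Ctss was at 0.584%, 0.531%, 0.986% and 2.36% of its MG level in AC, Laptm5 at 0.669%, 0.583%, 0.923% and 2.47%, and Cd68 at 0.910%, 0.688%, 1.2% and 3.19%. These 3 genes were within 2 times the share of the markers in all 4 libraries, and all were highest in AC of the wildtype frontal cortex. Ctsh (1.23%, 1.37%, 1.73% and 4.51%) and Ctsc (2.31%, 2.30%, 2.79% and 5.11%) lay above the markers, and Ctsd was at 5.64%, 5.64%, 6.43% and 6.20%, with no such peak. In label EC, whose cells carry endothelial markers, the microglia markers were at 0.358%, 0.461%, 0.805% and 0.560% of the MG level and Ctss at 0.397%, 0.472%, 0.716% and 0.562%. Ctsh was at 47.6% to 61.7% of its MG level in EC, and Ctsc at 15.9% to 23.0%.

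After each cell was thinned to 3000 UMIs, Ctss was found in 93.3% to 97.9% of MAC cells, 99.9% to 100% of MG cells and 6.83%, 5.89%, 11.3% and 9.80% of AC cells. In EC, which should lack it, the shares were 6.47%, 4.8%, 8.80% and 8.60% (medians before thinning of 6320 to 7983 UMIs per cell in AC and 7222 to 8530 in EC; unthinned shares 11.7% to 23.5% in AC and 12.4% to 23.5% in EC). For Laptm5 the thinned shares were 2.58% to 5.54% in AC and 2.65% to 6.38% in EC, and for Cd68 they were 0.583% to 3.00% in AC and 0.735% to 1.15% in EC. Shallower cells were left out: 13 to 40 cells a library in MAC, 107 to 193 in MG, 200 to 435 in AC and 77 to 235 in EC. For Ctss and Laptm5 the exact 95% intervals of AC and EC overlapped in all 4 libraries, which does not show equal shares. For Cd68 they overlapped in 3, and in wildtype frontal cortex AC was at 3.00% (1.97% to 4.36%) and EC at 1.02% (0.642% to 1.54%). As a level, Ctss was higher in AC than in EC in every library, most in wildtype frontal cortex (111 CPM in AC and 26.5 CPM in EC). Laptm5 was higher in AC in wildtype frontal cortex (49.1 and 21.4 CPM) and lower in AC in the other libraries. A single AC cell held 53 of the 349 Ctss UMIs in transgenic frontal cortex, and a single cell held 61 of 947 in wildtype frontal cortex. Doublets were not called, and the part of free RNA or doublets in these values was not tested.

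**Figure D4:**
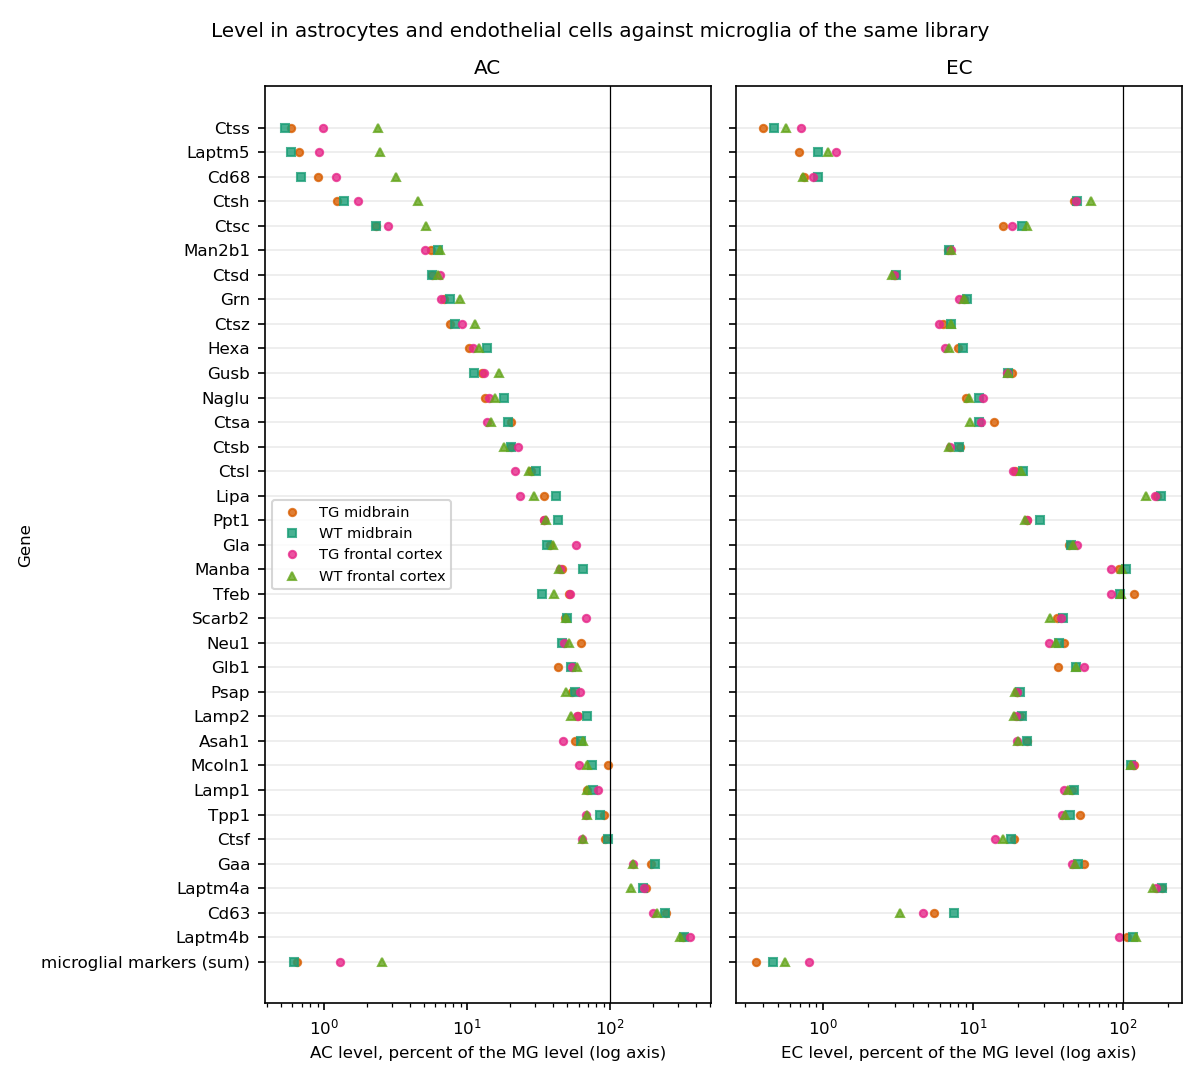
Level of each gene in AC (left) and EC (right) as percent of its level in MG of the same library (log axis), with the summed microglia markers as the lowest row; the line marks 100%. Ctss, Laptm5 and Cd68 lie beside the microglia markers in AC, while genes from Ctsd downward lie above them in every library.

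Over all 14 labels with at least 50 cells, MG had the highest sum of the 34 genes (26282 ± 1156 CPM, SD over 4 libraries), followed by MAC (19125 ± 1528 CPM) and then, far below, OPC (7349 ± 776 CPM), CPC (6645 ± 1092 CPM), AC (5751 ± 242 CPM) and PC (5609 ± 444 CPM). From OPC to PC, each label overlapped in range with the next. The lowest was SMC (2886 ± 118 CPM). The labels are printed as deposited, and some of them (OPC, OLG, CPC, imNeur and mNeur) go partly against their own markers. MG was highest in 18 of 34 genes and MAC in 9. EC was highest for Lipa (154 ± 18.2 CPM, against 148 ± 27.6 CPM in MAC) and Mcoln1 (25.6 ± 1.54 CPM, against 22.1 ± 1.37 CPM in MG), both with ranges that overlapped those of the next label. Laptm4a was highest in OPC (1358 ± 277 CPM) and PC (1220 ± 75.6 CPM), both above AC in every library. Laptm4b was highest on average in CPC (83.3 ± 44.6 CPM), whose lowest library was at 21.2 CPM, against 60.1 to 67.9 CPM in AC. Gla was highest in MNC (32.4 CPM, against 32.2 CPM in MAC) and Manba in OLG (27.2 CPM, against 25.7 CPM in MG). Gaa was highest in TNC (140 ± 21.9 CPM, 68 cells in 2 libraries), against 113 ± 28.3 CPM in OPC. For each of these genes the range overlapped that of the next label. For Ctsl, OPC (1115 ± 481 CPM) came near MG (1312 ± 84.7 CPM).

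Within MG and AC the authors' clusters differed in the sum of the genes. In frontal cortex MG, cluster 3 had 29763 CPM and cluster 2 had 27862 CPM, against 23720 CPM in cluster 7 and 21489 CPM in cluster 8 (mean of the 2 libraries). In midbrain MG, clusters 21 and 15 had 30445 and 30214 CPM, against 24657 CPM in cluster 2 and 21559 CPM in cluster 16. The shallow clusters 8, 16 and 21 (median 2750, 2077 and 1947 UMIs per cell) held both the lowest sums and the highest. Ctss reached 8774 CPM in midbrain cluster 21, against 3711 to 6180 CPM in the other midbrain MG clusters. In AC, cluster 4 of each region had the highest sum (6817 CPM in frontal cortex, 7491 CPM in midbrain), with median mitochondrial shares of 12.8% in frontal cortex and 14.7% in midbrain, and medians of 2053 and 1329 UMIs per cell, against 5.72% and 9091 UMIs in frontal cortex cluster 1 and 6.52% and 8699 UMIs in midbrain cluster 1. In cluster 4 Lamp1 was at 976 CPM in frontal cortex and 922 CPM in midbrain, against 545 and 481 CPM in cluster 1 of the same regions.

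For genotype, the question was whether the lysosomal genes differed between transgenic and wildtype cells of a label and region. Each ratio compares 1 library with another, and its 95% interval covers counting error alone. A call needed 1.5-fold and an interval that left out 0, in a gene with at least 20 CPM in 1 of the libraries.

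In MG no member was counted in either direction. The sum was 26230 CPM in transgenic and 24836 CPM in wildtype midbrain, a log2 ratio of 0.08 (0.07 to 0.09), and 27660 CPM in transgenic and 26403 CPM in wildtype frontal cortex, a log2 ratio of 0.07 (0.06 to 0.07). Among MG cells with under 4 UMIs of other types' markers, erythroid and choroid plexus genes not counted, these became 0.021 in midbrain and 0.10 in frontal cortex. In midbrain 0 of 34 genes were higher, against 0.954% of all genes, and 0 lower, against 2.47%; in frontal cortex 0 of 32 were higher, against 1.26%, and 0 lower, against 0.974%. The sum was higher in transgenic cells in 8 of 8 MG clusters, by the least in frontal cortex cluster 7 (23875 against 23565 CPM) and by the most in midbrain cluster 16 (23674 against 19444 CPM). The clusters of a region divide the same pair of libraries, so they are not separate comparisons of genotype. Erythroid markers also differed between these libraries, with 1697 CPM in transgenic and 47.4 CPM in wildtype midbrain MG, and 708 CPM in transgenic and 43.9 CPM in wildtype frontal cortex MG; their part in the result was not tested.

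Small differences recurred in MG of both regions. Intervals lay above 0 in both regions for 9 of the 32 genes measured in both (against 4.4% of all genes) and below 0 in both for 0 (against 7.4%), while 3 (Lamp2, Ctsh and Laptm5) were above 0 in 1 region and below it in the other. The 9 were Ctsb, Ctsc, Ctss, Ctsz, Lamp1, Psap, Lipa, Man2b1 and Grn. All of them but Lipa were at 396 CPM or more in MG of every library, while the share of all genes starts at 20 CPM. An interval leaves out 0 more easily in a gene with more UMIs, so these shares are not like for like. Ctss was at 5421 CPM in transgenic and 4792 CPM in wildtype midbrain MG (log2 ratio 0.18, 0.16 to 0.20), and at 5071 CPM in transgenic and 4720 CPM in wildtype frontal cortex MG (0.10, 0.09 to 0.12). Ctsc was at 504 CPM in transgenic and 458 CPM in wildtype midbrain MG (0.14), and at 447 CPM in transgenic and 396 CPM in wildtype frontal cortex MG (0.17). The largest of the 34 ratios in midbrain MG was that of Ppt1 (237 CPM in transgenic and 177 CPM in wildtype cells, 0.42, 0.31 to 0.52), which was not repeated in frontal cortex (0.03). In frontal cortex MG it was that of Cd63 (545 CPM in transgenic and 450.5 CPM in wildtype cells, 0.27, 0.22 to 0.33), which was at -0.07 in midbrain. With deep libraries such intervals are narrow, and with 1 library per genotype the spread between mice is unknown.

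In MAC the sums were almost level: 17866 CPM in transgenic and 17738 CPM in wildtype midbrain (log2 ratio 0.01), and 20486 CPM in transgenic and 20408 CPM in wildtype frontal cortex (0.01). Among the MAC cells with few UMIs of other types' markers the midbrain value was 0.10, with 2 genes higher. In midbrain 0 of 32 genes were higher, against 4.71% of all genes, and 2 lower, against 5.84%. These were Ctsf (38.7 CPM in transgenic and 65.7 CPM in wildtype MAC, log2 ratio -0.76, -1.54 to -0.05) and Tfeb (6 UMIs or 11.1 CPM in transgenic and 31 UMIs or 27.5 CPM in wildtype MAC, -1.31, -2.87 to -0.03). In frontal cortex 0 of 32 were higher, against 3.07%, and 1 lower, against 5.36%: Gaa (46.2 CPM in transgenic and 80.8 CPM in wildtype MAC, -0.81, -1.47 to -0.18). These counts are near or below the share of all genes, rest on 6 to 74 UMIs a library, and in midbrain 0 genes were lower among the MAC cells with under 4 UMIs of other types' markers, erythroid and choroid plexus genes not counted. Cd68 was above 0 in both regions (0.21 and 0.25) and Ctsl below 0 in both (-0.26 and -0.22); 1 of 31 genes in each direction compares with 1.55% and 1.58% of all genes.

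In AC of the midbrain the sum was 5587 CPM in transgenic and 5662 CPM in wildtype cells (log2 ratio -0.02, -0.03 to -0.005), and 0 of 25 genes were counted in either direction, against 0.806% higher and 0.594% lower of all genes. In AC of the frontal cortex it was 6111 CPM in transgenic and 5644 CPM in wildtype cells (0.11, 0.10 to 0.13). Within clusters the order was not the same: the sum was higher in transgenic cells in 1 of 4 frontal cortex AC clusters (cluster 1, 5931 against 5481 CPM) and in 2 of 6 midbrain AC clusters. In frontal cortex cluster 4 it was 6613 CPM in 309 transgenic cells and 7021 CPM in 205 wildtype cells.

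Of 28 genes in frontal cortex AC, 0 were higher, against 3.6% of all genes, and 4 were lower, against 2.96%. The 4 were Ctss, Laptm5, Ctsh and Ctsc. Ctss was at 49.99 CPM in transgenic and 111 CPM in wildtype cells (log2 ratio -1.16, -1.34 to -0.98). Laptm5 was at 17.04 CPM in transgenic and 49.1 CPM in wildtype cells (-1.53). Ctsh was at 13.6 CPM in transgenic and 32.3 CPM in wildtype cells (-1.25), and Ctsc at 12.5 CPM in transgenic and 20.2 CPM in wildtype cells (-0.70). In EC, Ctsh was at 47.6% to 61.7% of its MG level and Ctsc at 15.9% to 23.0%. The summed microglia markers were at 335 CPM in transgenic and 665 CPM in wildtype cells of this label, with none of the 11 at 0. Endothelial markers summed to 234 CPM in transgenic and 589 CPM in wildtype cells of this label. The part of either group of markers in these values was not tested. Among AC cells with under 4 UMIs of other types' markers (128 transgenic and 348 wildtype cells), Ctss, Laptm5 and Ctsh turned to higher in transgenic cells. Their log2 ratios were 0.95, 0.04 and 0.82, and 0.63, 0.48 and 0.73 when erythroid and choroid plexus genes were not counted as markers. Of the 4 genes, 0 were called. The filter counts microglia and endothelial markers, so the change in these genes could in part follow from the filter itself. It also kept shallower cells. The 128 transgenic cells held 386673 UMIs and the 348 wildtype cells 1665761 UMIs, against 6981554 UMIs in all 868 transgenic and 8495439 UMIs in all 1067 wildtype AC cells. As a mean of per-cell CPM, 0 of the 4 were past 1.5-fold either.

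Among the other genes of frontal cortex AC, the intervals of 6 lay above 0 without reaching 1.5-fold: Ctsb (396 CPM in transgenic and 287 CPM in wildtype cells, log2 ratio 0.46, 0.39 to 0.54), Psap (821 CPM in transgenic and 641 CPM in wildtype cells, 0.36), Scarb2 (0.34), Lamp1 (0.31), Laptm4a (0.30) and Cd63 (0.18). Over both regions, AC had 1 of 24 genes above 0 in both (Laptm4a, 0.08 in midbrain), against 8.23% of all genes, and 2 below 0 in both (Ctsl and Asah1), against 7.88%. Ctss, Lamp1 and Cd63 had opposite signs in the 2 regions. Median mitochondrial shares of AC were 9.68% in transgenic and 5.27% in wildtype frontal cortex, and among AC cells under 10% with at least 500 genes the log2 ratio of the sum was 0.072, while it was 0.20 among those with under 4 UMIs of other types' markers.

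**Figure D5:**
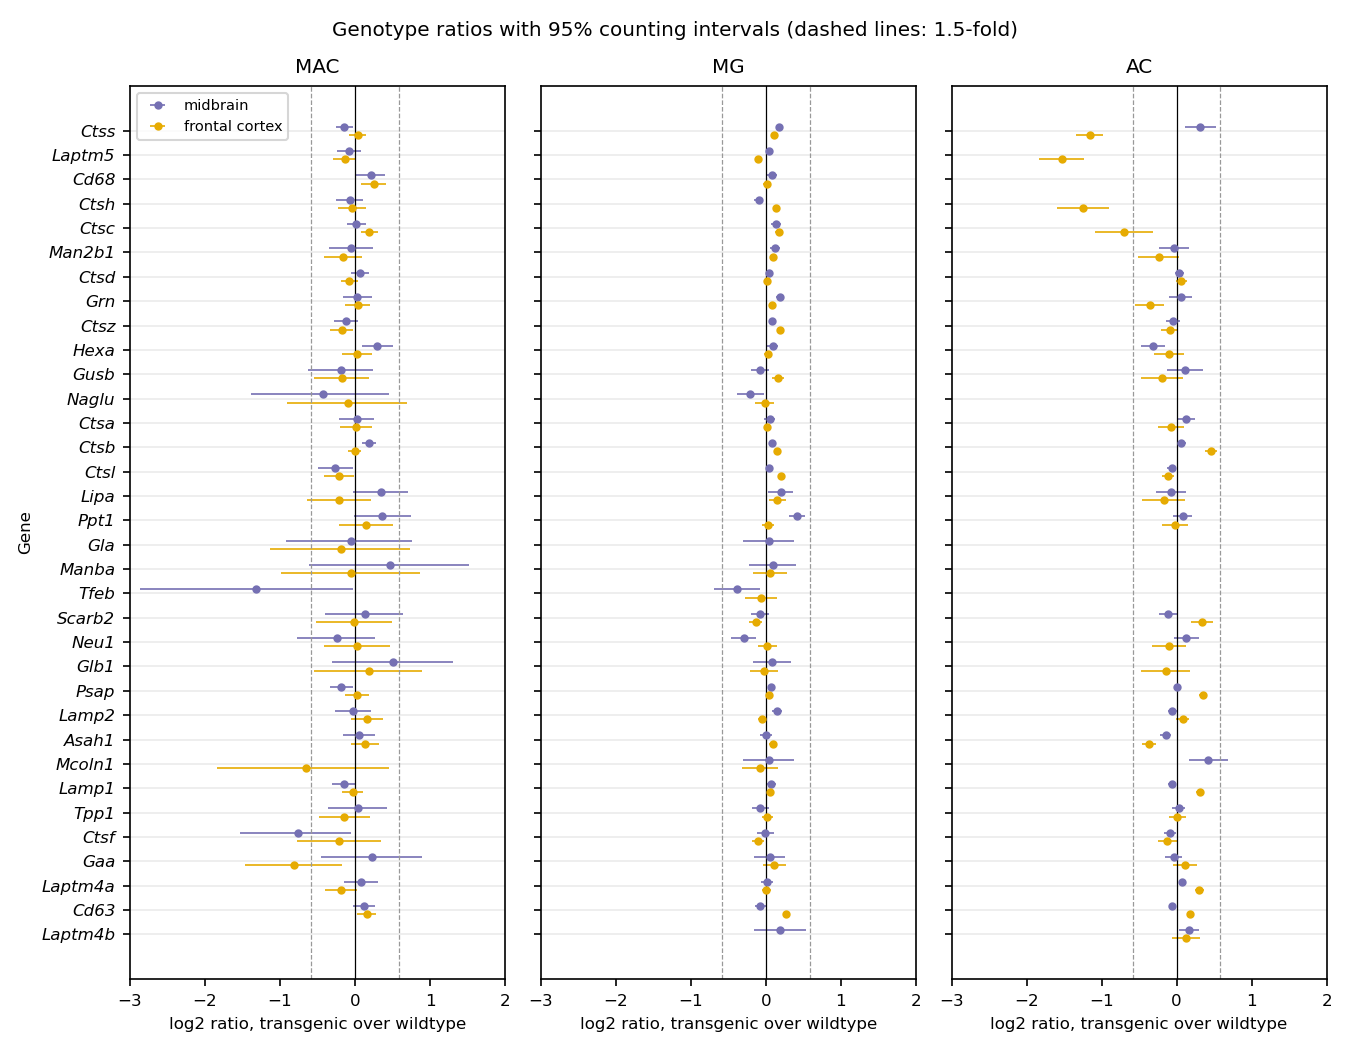
log2 ratio of transgenic over wildtype CPM for each gene in MAC, MG and AC, in midbrain and frontal cortex (points; bars, 95% counting intervals; genes under 20 CPM in both libraries left out; dashed lines, 1.5-fold). MG points lie close to 0 in both regions, MAC bars are wide, and Ctss, Laptm5, Ctsh and Ctsc of frontal cortex AC lie to the left.

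Between regions, the sum of the genes in MAC was lower in midbrain in both genotypes: 17866 CPM in midbrain and 20486 CPM in frontal cortex of transgenic mice (log2 ratio -0.20), and 17738 CPM in midbrain and 20408 CPM in frontal cortex of wildtype mice (-0.20). Among MAC cells with under 4 UMIs of other types' markers, erythroid and choroid plexus genes not counted, which were 29 to 85 cells a library, the log2 ratios were -0.067 in transgenic and -0.17 in wildtype mice. In transgenic MAC, Lipa was higher (186 CPM in midbrain and 121 CPM in frontal cortex, 0.63; 1 of 31 genes, against 6.12% of all) and Ctsf lower (38.7 CPM in midbrain and 70.0 CPM in frontal cortex, -0.85; 1 of 31, against 4.78%). In wildtype MAC, 0 of 33 were higher, against 5.57%, and Gaa was lower (48.8 CPM in midbrain and 80.8 CPM in frontal cortex, -0.73; 1 of 33, against 5.57%). In MG the log2 ratio of the sum was -0.08 in transgenic and -0.09 in wildtype mice, and 0 genes were counted in either direction (against 1.65% higher and 1.37% lower of all genes in transgenic MG, and 2.44% and 0.994% in wildtype MG). Choroid plexus genes summed to 1703 to 5347 CPM in the 3 labels of midbrain and to at most 20.8 CPM in frontal cortex, and their part in the lower midbrain sums was not tested.

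In AC the sum had a log2 ratio of midbrain over frontal cortex of -0.13 in transgenic and 0.005 in wildtype mice. In transgenic AC, 0 of 25 genes were higher, against 8.45%, and Ctss was lower (31.7 CPM in midbrain and 49.99 CPM in frontal cortex, -0.66; 1 of 25, against 8.6%). In wildtype AC, 0 of 28 were higher, against 6.58%, and 4 lower, against 7.06%: Laptm5 (-2.30), Ctss (-2.13), Ctsh (-1.64) and Ctsc (-0.95). The summed microglia markers were at 134 CPM in midbrain and 665 CPM in frontal cortex of wildtype AC. Endothelial markers summed to 183 CPM in midbrain and 589 CPM in frontal cortex of wildtype AC. The part of either group of markers in these values was not tested. Of the genes that AC expressed at higher levels, Ctsb was lower in midbrain AC of transgenic mice (286 CPM in midbrain and 396 CPM in frontal cortex, -0.47) and Lamp2 was higher in midbrain AC of wildtype mice (344 CPM in midbrain and 277 CPM in frontal cortex, 0.31), neither past 1.5-fold.

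Other genes of the lysosomal pathway were counted by the same rule, for which 20.2% of all genes were higher and 21.9% lower in MG than in AC. Of the 18 subunits of the proton pump (V-ATPase) measured for MG over AC, 2 were higher, Tcirg1 (median log2 ratio 2.53) and Atp6v0c (2.30), 1 was lower, Atp6v0e2 (-4.27), and 15 were not counted, so that the shares of this list in both directions lay below those of all genes. Their sum was 2561 to 2942 CPM in MAC, 2540 to 2725 CPM in MG and 1998 to 2191 CPM in AC. Of 7 genes that sort hydrolases, M6pr, a mannose 6-phosphate receptor (1.10), and Nagpa, which uncovers the mannose 6-phosphate tag (2.62), were higher in MG. Another 12 measured genes were of the TFEB family or of nutrient sensing at the lysosome, such as those of the Ragulator complex and the Rag GTPases. Of these 12, Tfe3 (2.78) and the Rag gene Rragc (1.95) were higher and the Rag gene Rragd (-3.06) was lower. This was again no larger a share than that of all genes in either direction. Of 17 other hydrolases and activators, 6 were higher, led by the legumain gene Lgmn (4.45) and the phospholipase gene Pla2g15 (3.85), and 1 was lower, the carboxypeptidase gene Cpq (-2.78). Cst3, which encodes the cathepsin inhibitor cystatin C, was at 39925 CPM in MG and 15712 CPM in AC on average (1.36). For MAC over MG, with 5.14% of all genes higher and 8.11% lower, 0 of 17 V-ATPase genes were higher and 2 lower, Tcirg1 (-1.37) and, named after its value was seen, Atp6v0a2 (-2.90), and Cst3 was lower: the cystatin genes summed to 7733 to 8309 CPM in MAC and 39520 to 41112 CPM in MG.

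Of 3 activated microglia genes measured for MG over AC, Lpl (5.50) and Cd9 (2.99) were higher and Axl (-2.93) lower. The 8 immediate early genes were all higher in MG than in AC, led by Atf3 (6.40), Btg2 (5.61) and Junb (5.15), and summed to 17369 to 22878 CPM in MAC, 17860 to 25906 CPM in MG and 411 to 1218 CPM in AC. Such genes are known to be induced in cells during dissociation, and their part in the levels of the lysosomal genes was not tested.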

How the data were processed

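UMI counts per gene and cell were deposited by the authors as 1 matrix per region, made with Cell Ranger 3.0.0 and Seurat 3.1.5 on mm10, per the submitters' processing notes; filters on cells are not given in the sources used here. Labels, clusters and the percent of mitochondrial UMIs per cell are the authors' deposited values, and all deposited cells were used. Doublets were not called here.

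UMIs were summed over the cells of each label and library and divided by their total (CPM); with 3' counting no length enters. Ratios of a pair of libraries have an exact Clopper-Pearson 95% interval, conditional on the summed UMIs, which covers counting error only; where 1 library had 0 UMIs it was set at 3. Between labels, a call needs 2-fold in all 4 libraries at 20 CPM; between 2 libraries, 1.5-fold and an interval leaving out 0. No test was run, since a group is 1 library and the labels came from the same counts. Values in every library are given for the 8 highest genes of each label, the 5 largest and 5 smallest MG over AC ratios, and genes called between genotypes; of each further list, at most 3 genes by size. The members and lists were chosen with earlier results of these data known. Some items are not reported here.

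Alternatives were edgeR 4.0.16 TMM factors (R 4.3.3), CPM averaged over single cells, a total from which ribosomal protein and mitochondrial genes were left out, stricter cells (under 10% mitochondrial UMIs, at least 500 genes), cells with under 4 UMIs of other types' markers, no filter on low genes, other fold limits and leaving out each library. Python 3.11.15, numpy 2.4.6, pandas 2.3.3, scipy 1.17.1 and matplotlib 3.10.9 were used.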

Additional observations from a re-analysis of the deposited data

How the results depend on the processing

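With 1 library per group, the spread between mice is unknown, and the depth of MAC (542525 to 1126661 UMIs a library) limits genes under about 20 CPM. Labels were compared within each of the 4 libraries and given as ratios per library. No paired analysis was possible because, between genotypes and between regions, each group is 1 library. Of the values for sums and counts, 262 kept direction and size under the alternatives, 82 moved and 1 reversed; of values for single genes, 902 kept them, 89 moved and 6 reversed. Where a value below moved, the cause was not tested. Shares of all genes are given for the main rules alone, so counts of genes under the alternatives have no such share beside them.

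Under TMM factors the log2 ratio of the sums became 2.31 for MG over AC, 1.86 for MAC over AC and -0.30 for MAC over MG, where 3 genes were lower. With a total that leaves out mitochondrial and ribosomal protein genes, MAC over AC became 1.88 and MAC over MG -0.35, again with 3 lower. MG over AC had 2 genes lower in place of 1 as a mean of per-cell CPM, among cells under 10% mitochondrial UMIs and at 1.5-fold. At 1.5-fold, MAC over AC had 2 lower, and MAC over MG had 4 higher and 8 lower. Leaving out each library in turn gave 2.18 to 2.21 for MG over AC (17 to 18 genes higher, 1 to 2 lower), 1.69 to 1.76 for MAC over AC (17 to 19 higher) and -0.49 to -0.43 for MAC over MG. As a mean share per cell, Ctsb made up 13.97% of MAC and Ctsd 21.4% of MG.

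For transgenic over wildtype, TMM factors gave 0.12 in midbrain MG, 0.076 in frontal cortex MG and -0.037 in midbrain AC. The total without mitochondrial and ribosomal protein genes gave 0.11 in frontal cortex MG and 0.18 in frontal cortex AC. The mean of per-cell CPM gave 0.046 in midbrain MG, 0.053 in frontal cortex MG and -0.0021 in midbrain AC, with 1 gene higher in midbrain AC, 0 lower in frontal cortex AC and 2 lower in frontal cortex MAC. Cells under 10% mitochondrial UMIs gave 1 gene lower in midbrain MAC and 0.072 for the sum in frontal cortex AC. No filter on low genes gave 1 lower in midbrain AC. At 1.2-fold there was 1 gene higher in midbrain MAC, 1 higher and 2 lower in midbrain MG, and 1 higher in frontal cortex MG. At the same limit 2 were higher and 1 lower in midbrain AC, and 5 higher and 6 lower in frontal cortex AC. Without a share of all genes at 1.2-fold, these counts do not show a difference particular to the lysosomal genes. In frontal cortex AC no filter on low genes gave 5 lower, against 4.

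The filter on UMIs of other types' markers left fewer than 50 cells in at least 1 library except in frontal cortex MG and AC, and was not run elsewhere. In AC this filter counts microglia and endothelial markers and keeps shallower cells, so it can itself change the values of genes high in MG or EC. It gave 0.10 in frontal cortex MG, and 0.20 with 2 genes higher and 0 lower in frontal cortex AC, where Ctsh (0.82), Ctss (0.95) and Laptm5 (0.037) reversed. The same filter without erythroid and choroid genes, chosen after seeing the data, kept 29 to 85 MAC cells a library. It gave 0.10 with 2 higher and 0 lower in midbrain MAC, 0.021 in midbrain MG, 0.10 with 1 higher in frontal cortex MG, 0.0062 in midbrain AC (reversed), and 0.18 with 3 higher and 0 lower in frontal cortex AC, where Ctsh (0.73), Ctss (0.63) and Laptm5 (0.48) reversed.

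For midbrain over frontal cortex, TMM factors gave -0.15 in wildtype MAC, -0.049 in transgenic MG and 1 gene higher in transgenic AC. The total without mitochondrial and ribosomal protein genes gave -0.092 in transgenic MG, -0.072 in wildtype MG, and -0.18 with 2 lower in transgenic AC. The mean of per-cell CPM gave 6 lower in transgenic MAC, 3 lower in wildtype MAC, -0.061 in transgenic MG and -0.055 in wildtype MG. Cells under 10% mitochondrial UMIs gave -0.082 in transgenic AC, and no filter on low genes gave 3 lower there. The marker filter without erythroid and choroid genes gave -0.067 in transgenic MAC, -0.17 with 1 higher and 2 lower in wildtype MAC, -0.12 with 1 lower in transgenic MG, -0.039 in wildtype MG, 4 lower in transgenic AC and 0.038 with 1 lower in wildtype AC. At 1.2-fold, 10 were lower in transgenic MAC, 13 lower in wildtype MAC, 1 higher and 7 lower in transgenic MG, and 4 lower in wildtype MG. At the same limit 5 were higher and 6 lower in transgenic AC, and 3 higher and 7 lower in wildtype AC. Without a share of all genes at 1.2-fold, these counts do not show a difference particular to the lysosomal genes.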
